A study of Saccharomyces cerevisiae with 44 samples.

Results

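The genes described here are 36 genes of the pheromone response and mating pathway of budding yeast (Saccharomyces cerevisiae, strain background W303), out of 6600 protein-coding genes counted in the study. They were chosen by name, as genes known for their part in mating, and all 36 were found in the table of mRNA reads. They fall into 7 roles: 7 a-specific genes, 4 G protein genes, 6 genes of the kinase cascade, 3 nuclear regulators, 6 genes of cell agglutination and fusion, 5 karyogamy genes and 5 other genes of pheromone-regulated membrane proteins (PRM genes). Both DNA strands were followed over all 22 groups of the study, each with 2 libraries, 44 libraries in all.

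The study asked how newly made and total RNA change as yeast cells enter quiescence, the resting state that cells reach after days without glucose. Nascent RNA was captured by labelling with 4-thiouracil (4tU-seq), and steady-state RNA is the total RNA of the same kind of culture. The groups used are as follows. Wild-type cells were taken in quiescence on day 7 and in G1, as nascent and as steady-state RNA, with libraries made by the Ovation kit. All other libraries were made with the Universal Plus kit. They comprise rrp6∆ and wild-type cells in quiescence on day 8 (nascent and steady state), in G1 (steady state), and 2 h before and 2, 24 and 48 h after the diauxic shift, when glucose runs out (steady state). They also comprise Nab3-AID and OsTIR-AID cells in quiescence on day 7 (nascent and steady state), both given indole-3-acetic acid (IAA, auxin) at 1 mg/mL. Quiescent cells came from cultures grown to saturation in rich medium with 2% glucose and were purified on a gradient. G1 arrest was imposed with alpha factor (5 µg/ml, repeated after 90 min), so every G1 group is also a group treated with mating pheromone. G1 cells were taken on day 1 and cells 2 h before and 2 h after the shift on day 2. Cells at 24 h were taken on day 3 and those at 48 h on day 4. RRP6 encodes a nuclease of the nuclear exosome, which degrades many short-lived noncoding RNAs. Nab3 is an RNA-binding protein that ends transcription of such RNAs, and the AID tag lets auxin and the plant protein OsTIR direct a protein to degradation. RNA counts do not show whether Nab3 protein was lost.

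Haploid yeast cells of mating type a make a-factor and carry the receptor for alpha factor, and alpha cells do the converse. Binding of pheromone to the receptor frees the G protein beta and gamma subunits, which act through a scaffold and a chain of protein kinases on the transcription factor Ste12. Ste12 then raises transcription of genes for arrest in G1, adhesion of the partners, cell fusion and fusion of the nuclei. Sst2, Bar1 and Msg5 dampen the signal.

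Mapped mRNA reads ran from 1337088 to 11939647 per library, and values for single genes are given as RPKM (reads per kilobase of gene, scaled for library size over all 44 libraries together), always with the 2 libraries in replicate order. Fold changes and tests come from a separate fit for each set of libraries, whose scale differs from that of the RPKM values by -0.12 to 0.13 on the log2 scale. The sense reads of RRP6 came to 3.23 to 17.9 CPM (reads scaled to library size) in rrp6∆ libraries and to 84.4 to 283 CPM in all other libraries. Times around the shift were matched between the genotypes over 6391 genes, after each gene's mean over the 4 times of its genotype was subtracted. Pearson r then compares changes over time and not whole expression profiles. Libraries labelled rrp6∆ +2 h resembled wild-type +24 h more than wild-type +2 h (r 0.78 and 0.22). Libraries labelled rrp6∆ +24 h resembled wild-type +2 h (0.64) more than wild-type +24 h (-0.19). At -2 h and +48 h the same times had r of 0.93 and 0.89. The ratio of S. cerevisiae to Kluyveromyces lactis reads, a second yeast whose reads were counted in the same libraries, followed the same pattern: 3.59 to 3.71 in libraries labelled rrp6∆ +2 h, 5.66 to 6.02 in those labelled rrp6∆ +24 h, 6.88 to 6.89 in wild type at +2 h and 2.66 to 2.88 in wild type at +24 h. Results at these times are therefore given for the libraries as labelled and with the times crossed. The column names of the deposited tables put the Universal Plus G1 libraries in batch 2 and the -2 h libraries in batch 1, without saying what a batch is, so batch and alpha factor cannot be told apart there. Of the rrp6∆ +48 h libraries, library 1 is in batch 2 and library 2 in batch 1, and wild-type +48 h library 1 has runs in both. So does rrp6∆ steady-state library 2 of day 8, while the other day-8 libraries are in batch 1. As a check of mating type, the 7 a-specific members summed to 241 RPKM or more in every library, while 4 alpha-specific genes summed to 17.9 to 134, and MF(ALPHA)1, the alpha-factor gene, had 0 reads in both wild-type Universal Plus G1 libraries. Within single libraries the gap was widest in G1 and narrowest in nascent Nab3-AID libraries. There the sums were 324 and 331 a-specific against 102 and 96.8 alpha-specific RPKM. Tests were repeated with each library scaled to its K. lactis reads instead of to the bulk of S. cerevisiae genes (K. lactis scaling below). That moved the median log2 fold change of all genes by -4.43 to 2.01 over the 20 comparisons, by over 0.1 in 17 of them, so that calls under it are relative to another baseline. The ratio to K. lactis also differed between Ovation replicates: 48.6 and 24.7 in nascent G1, 16.1 and 9.84 in steady-state G1, 1.04 and 1.74 in nascent quiescence. Standard errors were wider there, such as 0.97 against 0.28 for STE20 (quiescence over G1, nascent minus steady state). Calls lost under this scaling can thus reflect wider errors. In these bulk samples, fewer cells of a type and less RNA per cell cannot be told apart.

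Taken over all groups, the module was high in G1 and low elsewhere. Its 36 genes held 3.80% to 5.40% of mRNA reads in the steady-state G1 libraries and 7.67% to 8.23% in nascent G1 libraries, against 0.123% to 0.446% in the libraries of all other groups. In 30 of the 36 genes the mean of each of the 4 G1 groups lay above the mean of each of the 18 other groups. The exceptions were STE18, STE20, STE5, STE11, STE7 and PRM10, of which 4 belong to the kinase cascade. FUS1 (YCL027W, chromosome III, 71803 to 73341), which encodes a membrane protein needed for cell fusion, shows the usual pattern. It had 733 and 656 RPKM in rrp6∆ G1 cells, 773 and 705 and 728 and 781 in the 2 sets of wild-type steady-state G1 libraries and 1184 and 1281 in wild-type nascent G1 libraries. All 36 libraries outside G1 were between 2.78 and 19.2 RPKM, so the groups did not overlap. The highest levels of all were those of the a-factor genes MFA1 (YDR461W, chromosome IV, 1385176 to 1385286) and MFA2 (YNL145W, chromosome XIV, 352414 to 352530), whose group means ran from 8060.1 to 17701 and from 10383 to 14079 RPKM in G1 and from 81.1 to 1285 and from 53.7 to 4235 RPKM elsewhere. These 2 genes are near-identical in part, as are PRM8 and PRM9, and reads that matched more than 1 place were left out of the counts. KAR5 (YMR065W, chromosome XIII, 399702 to 401216) acts in nuclear membrane fusion. Among the 30 genes highest in G1 it had one of the lowest G1 levels, with 122 to 221 RPKM in the G1 groups and 4.27 to 20.6 in the others.

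**Figure D1:**
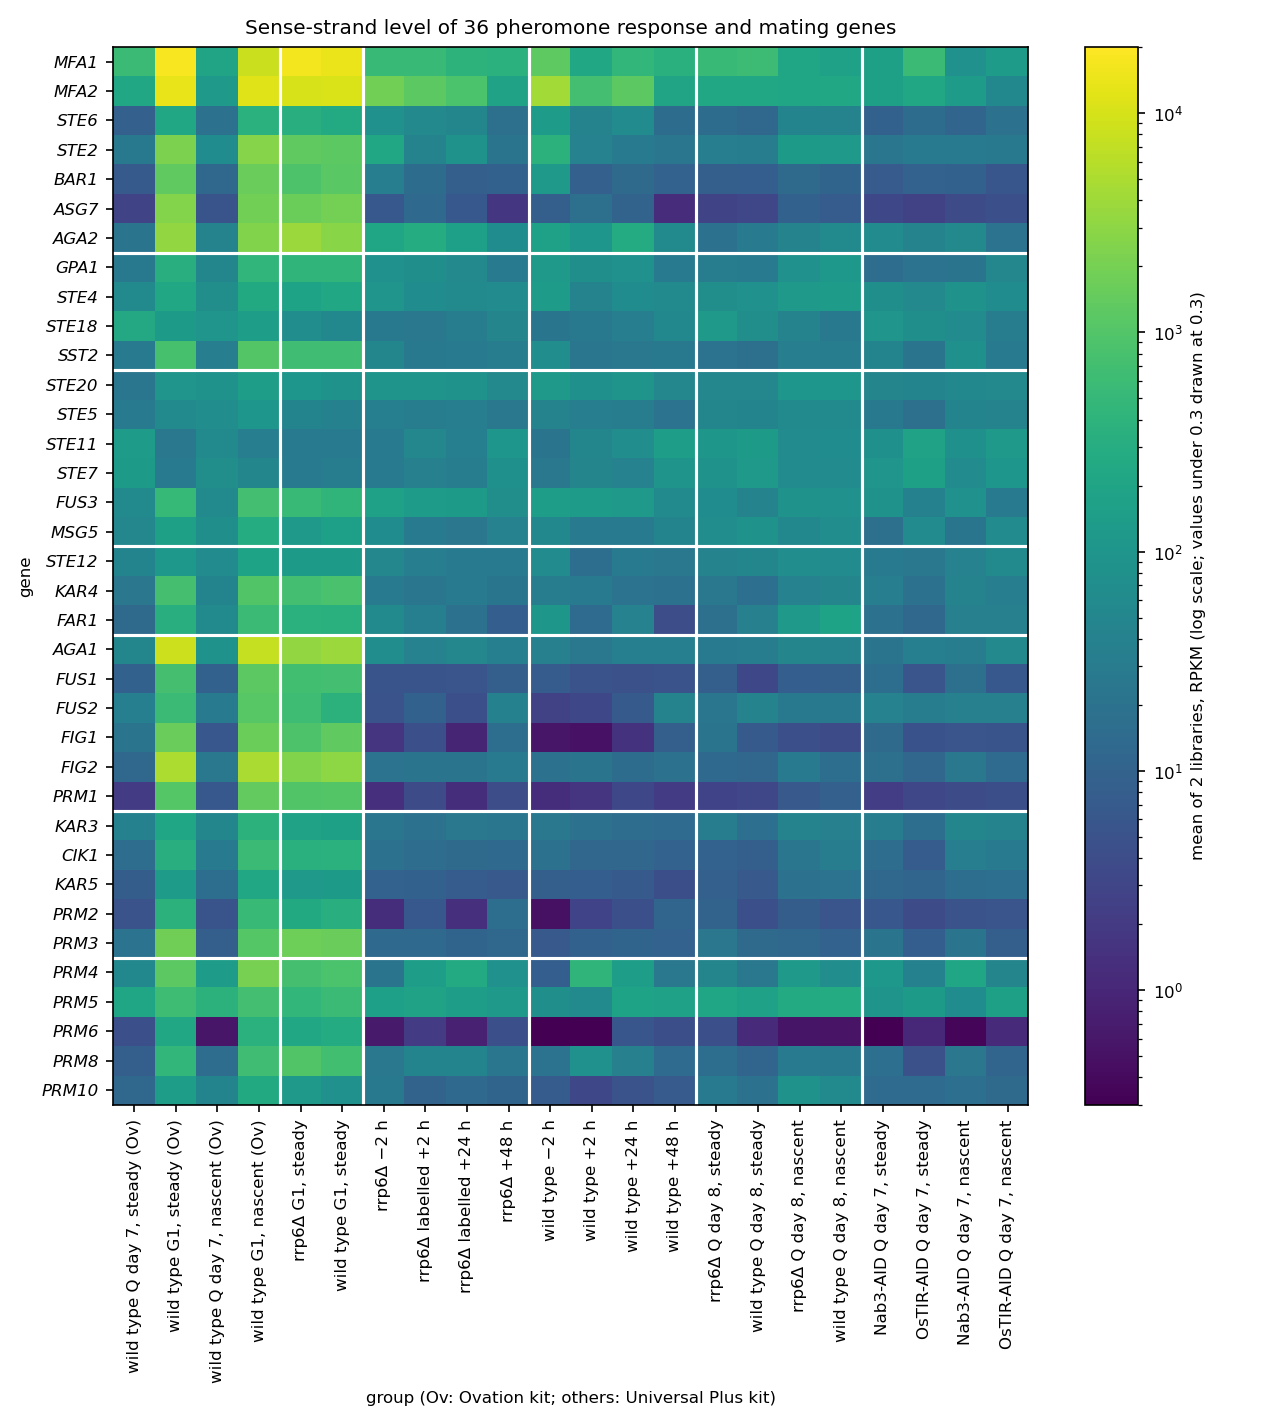
Mean level of each of the 36 genes on the sense strand (colour, RPKM, log scale; mean of 2 libraries) in each of the 22 groups, ordered by role. The 4 G1 groups stand out as high columns for 30 of the 36 genes, while STE11 and STE7 have their highest level in OsTIR-AID quiescent cells at 177 and 167 RPKM.

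Cells arrested in G1 with alpha factor on day 1 were compared with cells growing 2 h before the diauxic shift on day 2. Culture age, cell cycle arrest and batch differ together with alpha factor here, so their parts cannot be told apart. In wild type, 34 of 36 genes were higher in G1, 1 was lower and 1 was not called, with a median log2 fold change of 3.36. The test, here and below, was edgeR's quasi-likelihood test with Benjamini-Hochberg adjustment over all genes tested (6182 here). By it 53.3% of all genes were called (26.7% higher, 26.7% lower; median -0.01). All 7 a-specific genes rose. ASG7 (YJL170C, chromosome X, 101150 to 101779), whose a-specific product dampens signalling after mating, had 2049.6 and 1875 RPKM in G1, against 7.91 and 9.45 at -2 h (log2 fold change 7.79 ± 0.16, adjusted p = 7.75e-22). All 4 G protein genes rose too, led by SST2 (YLR452C, chromosome XII, 1039270 to 1041366), which speeds the switching off of the G protein alpha subunit: it had 637 and 666 RPKM in G1 and 71.4 and 67.2 at -2 h (log2 fold change 3.20 ± 0.08, adjusted p = 1.22e-20). In both genes the difference was far larger than that between replicates.

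The kinase cascade moved least. Of its 6 genes 4 rose and 1 fell, with a median of 0.36. The largest change was in MSG5 (YNL053W, chromosome XIV, 529942 to 531411), a phosphatase that acts on the kinase Fus3, at 163 and 148 RPKM in G1 against 54.7 and 51.8 at -2 h (log2 fold change 1.51 ± 0.08, adjusted p = 4.01e-14). STE20 (YHL007C, chromosome VIII, 95118 to 97937), the kinase at the head of the cascade, went the other way with 87.8 and 87.6 in G1 against 118 and 117 (log2 fold change -0.46 ± 0.10, adjusted p = 0.000262). STE5 (YDR103W, chromosome IV, 658350 to 661103), the scaffold, was not called at 40.4 and 39.7 in G1 and 42.8 and 43.2 at -2 h (log2 fold change -0.14 ± 0.07, adjusted p = 0.119). The nuclear regulators rose in all 3 cases, and KAR4 (YCL055W, chromosome III, 27929 to 28936), a transcription factor that works with Ste12, was the most changed at 853 and 791 against 31.8 and 35.3 RPKM (log2 fold change 4.59 ± 0.11, adjusted p = 1.07e-21).

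The genes for adhesion, fusion and karyogamy changed most. All 6 genes of agglutination and fusion rose, with a median of 7.18. FIG1 (YBR040W, chromosome II, 316968 to 317864), which takes part in calcium entry and fusion, had 1371 and 1306 RPKM in G1 against 0.953 and 0.207 at -2 h (log2 fold change 10.96 ± 0.20, adjusted p = 1.9e-23). FUS1 had 773 and 705 RPKM in G1 against 7.22 and 8.22 at -2 h (log2 fold change 6.55 ± 0.13, adjusted p = 2.88e-23). Of the karyogamy genes, all 5 of which rose, PRM2 (YIL037C, chromosome IX, 283029 to 284999), a membrane protein needed for nuclear fusion, had 324 and 304 against 0.434 and 0.566 RPKM (log2 fold change 9.25 ± 0.22, adjusted p = 1.03e-18). PRM6 (YML047C, chromosome XIII, 180017 to 181075), a pheromone-regulated membrane protein, had 3169 reads in G1 and 3 at -2 h over both libraries, a depth-scaled ratio of 1204 (95% interval 412 to 5841). FIG1, PRM2 and PRM6 were thus near the limit of detection at -2 h. All 5 other PRM genes rose.

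In rrp6∆ cells 33 of 36 genes rose in G1 over -2 h and 0 fell, with a median of 3.62, where 52.3% of all genes were called. FUS1 had 733 and 656 RPKM in rrp6∆ G1 and 6.57 and 4.20 at -2 h (log2 fold change 6.92 ± 0.13, adjusted p = 2.16e-23). The largest changes by role were in ASG7 (7.92 ± 0.17), SST2 (3.68 ± 0.09), FUS3 (1.67 ± 0.09), KAR4 (4.56 ± 0.11), PRM1 (9.45 ± 0.14), PRM2 (7.62 ± 0.19) and PRM6 (8.25 ± 0.22), with adjusted p of 1.52e-14 or lower for each. FUS3 (YBL016W, chromosome II, 192451 to 193512) encodes the mating MAP kinase and PRM1 (YNL279W, chromosome XIV, 110917 to 112902) a protein of membrane fusion. The change itself differed between the genotypes for 19 genes, 10 with a greater and 9 with a smaller log2 change in rrp6∆ (background 36.1%). The 5 a-specific genes among them (MFA1, MFA2, STE6, STE2 and BAR1) all had the greater change (rrp6∆ minus wild type 1.43 ± 0.22, 1.11 ± 0.13, 1.00 ± 0.12, 0.82 ± 0.13 and 1.32 ± 0.13). Each of them was lower in rrp6∆ than in wild type at -2 h. BAR1 (YIL015W, chromosome IX, 322342 to 324105), the secreted protease that destroys alpha factor, had 915 and 883 RPKM in rrp6∆ G1 and 37.4 and 33.3 at -2 h, against 1227 and 1146 in wild-type G1 and 118 and 118 at -2 h. PRM4 (YPL156C, chromosome XVI, 255913 to 256767), a pheromone-regulated membrane protein, had the smaller change in rrp6∆ (-1.61 ± 0.21). K. lactis scaling gave 19 higher and 6 lower for this difference. Among the other markers, 6 of 6 S to M phase genes fell in wild-type G1 and 5 of 6 in rrp6∆ G1.

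**Figure D2:**
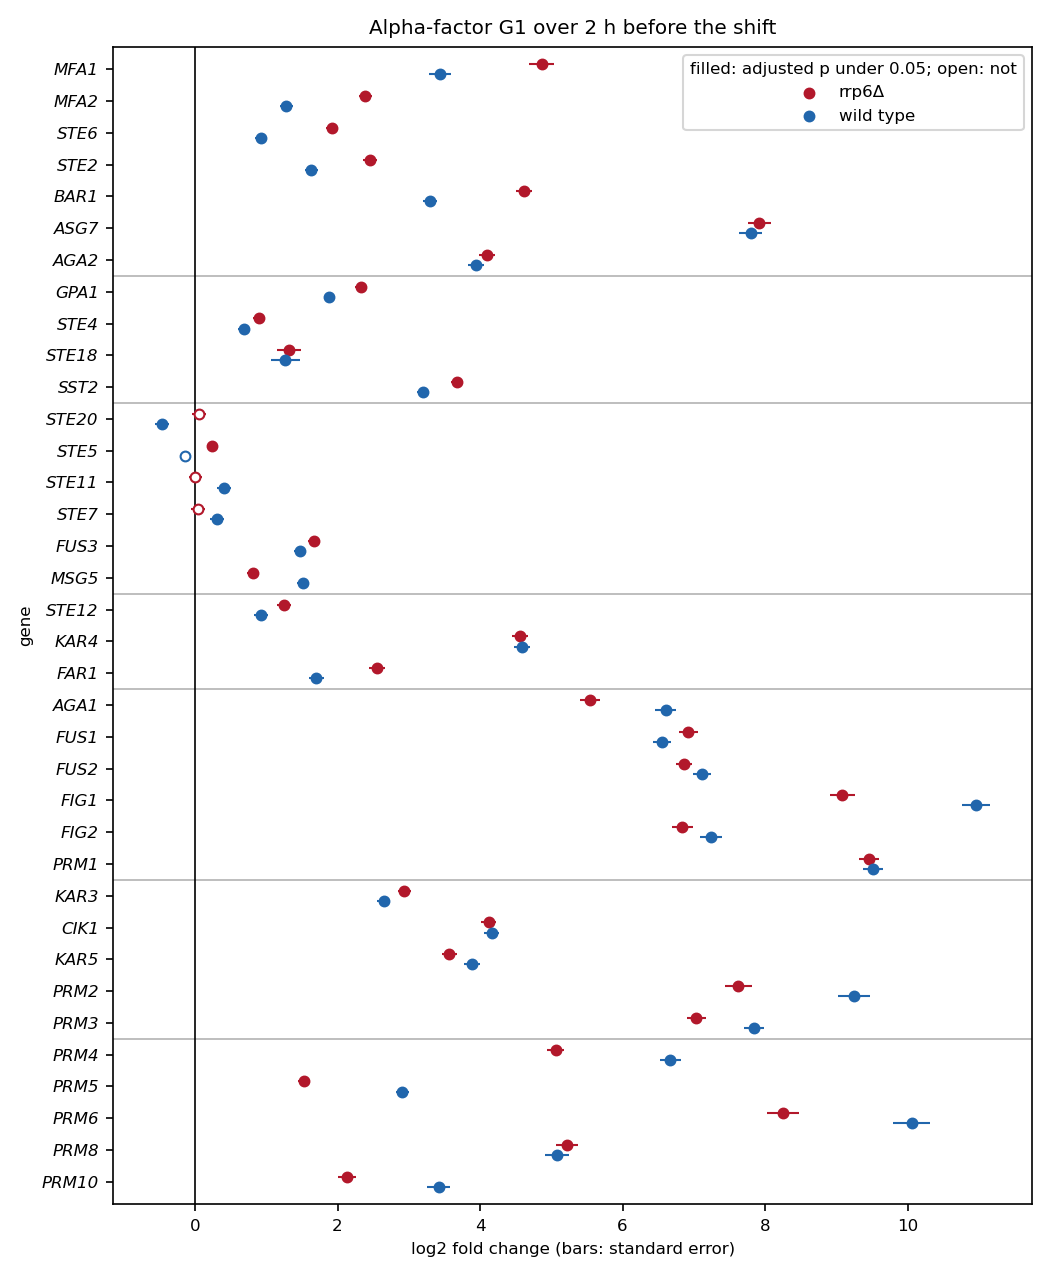
Log2 fold change of G1 with alpha factor over -2 h for each of the 36 genes in rrp6∆ and wild-type cells, with the standard error as a bar (2 libraries a group). Genes of agglutination and fusion reach 10.96 (FIG1 in wild type), while STE20, STE5, STE11 and STE7 of the kinase cascade lie near 0, with STE20 at -0.46 ± 0.10 in wild type.

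Quiescent wild-type cells were then set against G1 cells, as total and as nascent RNA, within the Ovation libraries. In steady-state RNA 33 genes were lower in quiescence and 3 were higher (median -4.74; all genes -0.01), where 37.8% of all genes were lower and 36.6% higher (74.4% called). In nascent RNA 33 were lower and 2 higher (median -4.37), where 62.2% of all genes were called. Each a-specific gene fell in both kinds of RNA. The agglutination and fusion genes had the lowest medians, -6.93 in steady-state and -7.37 in nascent RNA. Since the G1 cells had been given alpha factor, entry into quiescence and the absence of pheromone cannot be told apart in this comparison.

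By role, the largest steady-state decreases were as follows. ASG7 had 2.59 and 3.21 RPKM in quiescence, against 2464 and 2527 in G1 (log2 fold change -9.84 ± 0.33, adjusted p = 4.98e-07). PRM1 had 0.987 and 3.31 RPKM in quiescence, against 1031 and 1093 in G1 (log2 fold change -9.15 ± 0.52, adjusted p = 1.19e-06). PRM3 (YPL192C, chromosome XVI, 182655 to 183056), which acts in fusion of the nuclear envelopes, had 26 and 15.1 against 1875 and 1763 (log2 fold change -6.49 ± 0.31, adjusted p = 6.09e-07). PRM8 (YGL053W, chromosome VII, 402589 to 403302) had 10.1 and 7.08 against 463 and 468 (log2 fold change -5.80 ± 0.23, adjusted p = 4.98e-07). In each the quiescent libraries lay far below both G1 libraries. In the signalling roles SST2 had 31.8 and 27.5 RPKM in quiescence against 807 and 800.4 in G1 (log2 fold change -4.84 ± 0.24, adjusted p = 7.36e-07) and KAR4 25.6 and 23.1 against 768 and 714 (log2 fold change -5.00 ± 0.22, adjusted p = 4.98e-07). FUS3 had 84 and 36.7 against 485 and 532 (log2 fold change -3.13 ± 0.35, adjusted p = 4.53e-05), with its 2 quiescent libraries over 2-fold apart.

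In nascent RNA ASG7, SST2, FUS3, KAR4 and PRM3 again had the largest called change of their role, while FIG1 and PRM6 took the place of PRM1 and PRM8. KAR4 had 41.9 and 50.1 nascent RPKM in quiescence against 919.9 and 1013 in G1 (log2 fold change -4.44 ± 0.20, adjusted p = 1.58e-06), and SST2 38.2 and 32.2 against 1039 and 1053 (log2 fold change -4.94 ± 0.24, adjusted p = 1.88e-06). FUS3 had 62 and 58.9 against 718 and 728 (log2 fold change -3.63 ± 0.35, adjusted p = 5.41e-05), here with the quiescent libraries close together. FIG1 was at 8.89 and 3.44 nascent RPKM in quiescence, against 1595 and 1735 in G1 (log2 fold change -8.13 ± 0.54, adjusted p = 7.29e-06). All of these lay outside the G1 range.

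Members that rose in quiescence belong to the signalling chain. STE11 (YLR362W, chromosome XII, 849866 to 852019), the kinase that activates Ste7, had 116 and 160.1 RPKM in quiescence against 27.1 and 23.7 in G1 (log2 fold change 2.36 ± 0.20, adjusted p = 8.07e-06). STE7 (YDL159W, chromosome IV, 172481 to 174028), the kinase that activates Fus3, had 104 and 147 against 29.2 and 27.8 (log2 fold change 2.05 ± 0.19, adjusted p = 1.53e-05). Both also serve the filamentous growth pathway, and Ste11 the response to osmotic stress. In nascent RNA the rise was smaller, with STE11 at 61.5 and 61.3 against 31.9 and 37.8 RPKM (log2 fold change 0.77 ± 0.19, adjusted p = 0.00661) and STE7 at 69.2 and 76.5 against 47 and 49.3 (log2 fold change 0.55 ± 0.18, adjusted p = 0.026). STE7's nascent call was lost without any 1 of the 4 libraries (adjusted p = 0.0521 to 0.129) and STE11's without G1 library 1 (adjusted p = 0.0653), and both turned to a decrease with K. lactis scaling (-3.64 for STE11, -3.87 for STE7). STE18 (YJR086W, chromosome X, 586068 to 586400), the G protein gamma subunit, had 336 and 150.3 steady-state RPKM in quiescence against 119.9 and 134 in G1 (log2 fold change 0.88 ± 0.34, adjusted p = 0.0395). Its quiescent libraries differed by over 2-fold and the call was lost without quiescent library 1 or either G1 library (adjusted p = 0.0937 to 0.844). STE18 also overlaps the open reading frame YJR087W on its own strand, and how reads were divided there is not given in the sources used here.

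**Figure D3:**
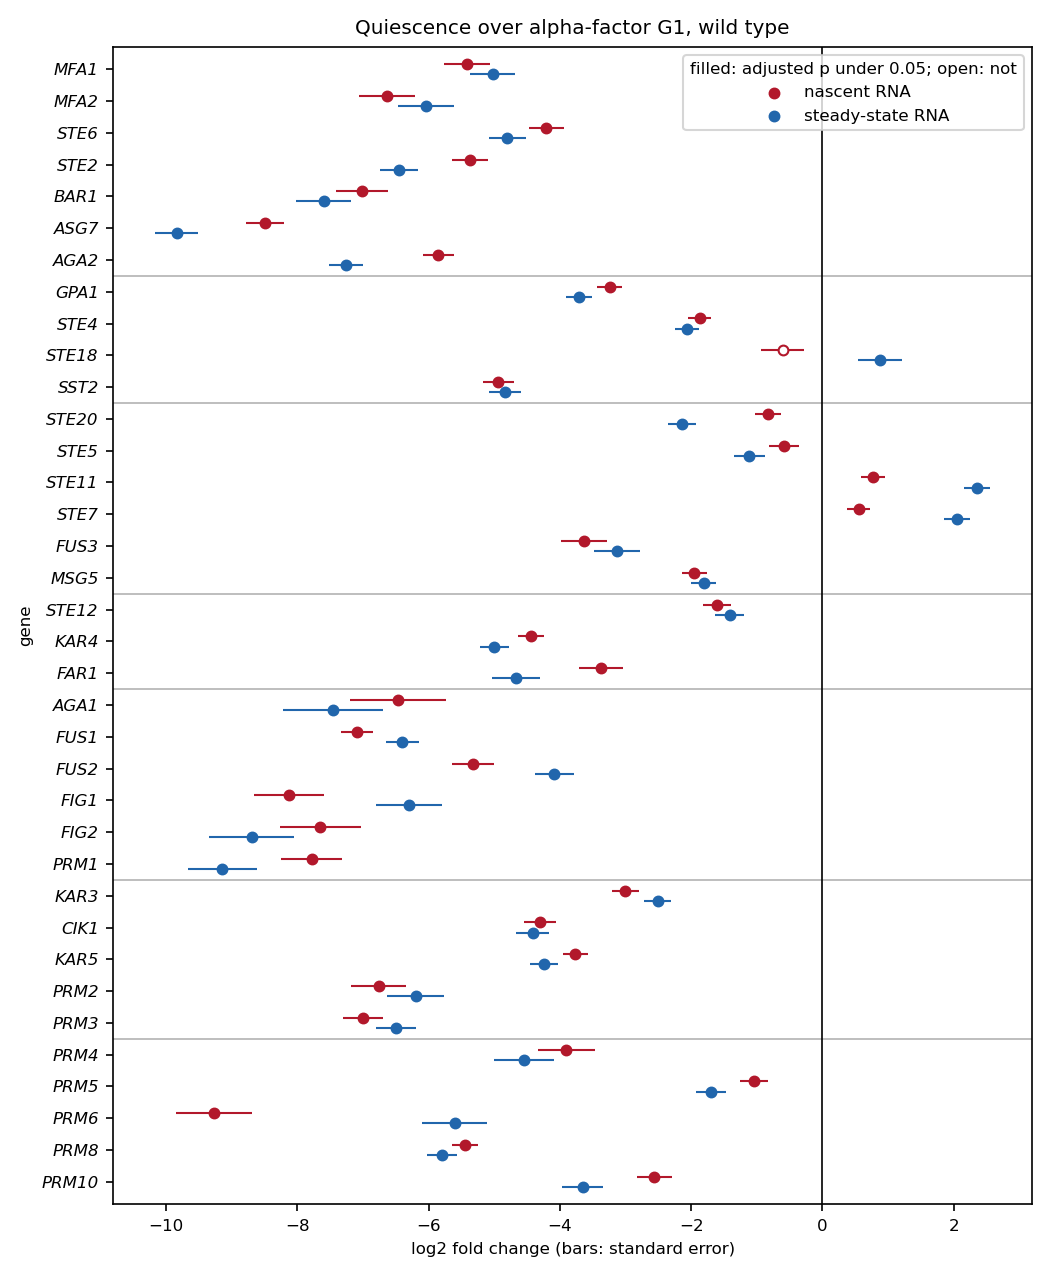
Log2 fold change of quiescence over G1 for each of the 36 genes in nascent and in steady-state RNA of wild-type cells (Ovation kit), with the standard error as a bar (2 libraries a group). STE11 and STE7 lie to the right of 0 in both kinds of RNA and STE18 only in steady-state RNA, while ASG7 reaches -9.84 ± 0.33 in steady-state RNA.

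Nascent and steady-state RNA gave different sizes of change for 11 genes (5 less lowered in nascent RNA or raised there, 6 more lowered or less raised; background 37.6%). STE20 was 1.31 ± 0.28 and AGA2 (YGL032C, chromosome VII, 436570 to 436833), the binding subunit of a-agglutinin, 1.41 ± 0.31 (nascent minus steady state, log2; adjusted p = 0.00803 and 0.0091). STE11 (-1.59 ± 0.27, adjusted p = 0.00288) and PRM6 (-3.67 ± 0.81, adjusted p = 0.00852) went the other way, PRM6 on 8.02 and 0.955 RPKM in its 2 steady-state quiescent libraries. Without quiescent steady-state library 1, PRM6 was no longer called (adjusted p = 0.457). Leaving out 1 library gave 5 to 15 calls in all, with 5 or 6 without any of the 4 G1 libraries and 7 without nascent quiescent library 2, and K. lactis scaling gave 0 higher and 36 lower, with STE20 at -2.89 and AGA2 at -2.72.

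Within one state, nascent over steady-state RNA compares what is being made with what has built up. In quiescence 17 members were higher in nascent RNA and 7 lower, where 52.7% of all genes were called (with K. lactis scaling, 0 higher and 17 lower). FAR1 (YJL157C, chromosome X, 123836 to 126328), the inhibitor of the cyclin-dependent kinase in G1, had 66.7 and 49.7 nascent RPKM against 8.78 and 18.9 in steady-state RNA (log2 fold change 2.17 ± 0.33, adjusted p = 0.00103). STE20 had 102 and 72.4 nascent against 24.2 and 23 steady-state RPKM (log2 fold change 1.95 ± 0.21, adjusted p = 0.000242). In both the nascent libraries lay above the steady-state libraries, but neither was called with K. lactis scaling (adjusted p = 0.875 and 0.773). MFA1 had 190.3 and 199.9 nascent against 657 and 487 steady-state RPKM (log2 fold change -1.50 ± 0.31, adjusted p = 0.00398), and STE11 had 61.5 and 61.3 against 116 and 160.1 (log2 fold change -1.11 ± 0.19, adjusted p = 0.00159). STE7 was also lower (-0.72 ± 0.18, lost without nascent library 1, adjusted p = 0.0563), as were STE18 (-1.29 ± 0.33) and PRM3 (-1.22 ± 0.32). The calls of PRM1 (1.75 ± 0.49), STE18 and PRM3 each ended without either of 2 single libraries, and that of PRM6 (-3.01 ± 0.72) without steady-state library 1 (adjusted p = 0.0695 to 0.075, 0.0735 to 0.0809, 0.0641 to 0.225 and 0.687). FUS1 was not called, with 10.1 and 8.46 nascent against 9.34 and 9.53 steady-state RPKM (log2 fold change 0.04 ± 0.22, adjusted p = 0.912).

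In G1 cells 12 members were higher in nascent than in steady-state RNA and 2 lower, where 27.3% of all genes were called, and K. lactis scaling gave 34 higher and 0 lower. FUS1 had 1184 and 1281 nascent against 728 and 781 steady-state RPKM (log2 fold change 0.73 ± 0.19, adjusted p = 0.024). MFA1 had 10324 and 5796 against 17322 and 18081 (log2 fold change -1.11 ± 0.29, adjusted p = 0.0251), with its nascent libraries almost 2-fold apart. The others named by role were MSG5 (0.80 ± 0.18), STE12 (0.77 ± 0.21), FUS2 (0.92 ± 0.26), CIK1 (0.89 ± 0.22), PRM10 (0.84 ± 0.26) and PRM3 (-0.72 ± 0.23), with adjusted p of 0.0163 to 0.0469. STE12 (YHR084W, chromosome VIII, 274174 to 276240) is the transcription factor of the pathway, FUS2 (YMR232W, chromosome XIII, 736926 to 738959) acts in cell fusion, CIK1 (YMR198W, chromosome XIII, 659745 to 661529) is the partner of the motor Kar3, and PRM10 (YJL108C, chromosome X, 217705 to 218856) is a membrane protein whose gene overlaps YJL107C on its own strand. The count rested on all 4 libraries, since leaving out any 1 gave 0 to 3 calls (3 without nascent library 1, 0 without any of the others).

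Around the diauxic shift in wild type, most of the module stayed low and its genes moved in different ways. At +2 h over -2 h 6 genes rose and 20 fell, where 77.5% of all genes were called (K. lactis scaling: 4 higher and 26 lower). Of the a-specific genes 6 of 7 fell. BAR1 had 7.84 and 9.95 RPKM at +2 h against 118 and 118 at -2 h (log2 fold change -3.71 ± 0.13, adjusted p = 4e-19). FAR1 had 15.4 and 14.2 against 106 and 104 (log2 fold change -2.82 ± 0.13, adjusted p = 7.27e-16), and STE4 (YOR212W, chromosome XV, 742910 to 744181), the G protein beta subunit, 43.9 and 41.7 against 129.7 and 136 (log2 fold change -1.62 ± 0.10, adjusted p = 8.2e-14). In these 3 genes the groups did not overlap. PRM4 went the other way, with 401 and 473 RPKM at +2 h against 7.00 and 9.58 at -2 h (log2 fold change 5.75 ± 0.15, adjusted p = 1.84e-21). Also higher were STE11 (1.24 ± 0.10), STE7 (0.88 ± 0.10), ASG7 (1.11 ± 0.25) and PRM2 (2.46 ± 0.50). K. lactis scaling turned STE7 to -0.06 and left ASG7 uncalled (adjusted p = 0.562). FUS1 was low at both times, with 5.05 and 5.11 against 7.22 and 8.22 RPKM (log2 fold change -0.58 ± 0.20, adjusted p = 0.0115), and the call ended without -2 h library 2 (adjusted p = 0.0705).

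At +24 h over +2 h 17 genes rose and 6 fell in wild type, where 60.3% of all genes were called, but K. lactis scaling gave 2 higher and 27 lower. FAR1 had 38.2 and 44.9 RPKM at +24 h against 15.4 and 14.2 at +2 h (log2 fold change 1.59 ± 0.14, adjusted p = 7.73e-10), and AGA2 273 and 289 against 99.7 and 105 (log2 fold change 1.56 ± 0.14, adjusted p = 4.85e-10). Under K. lactis scaling neither of these 2 was called (adjusted p = 0.342 and 0.444), and the rises of STE4 (0.76 ± 0.11), STE11 (0.56 ± 0.09) and FUS2 (1.18 ± 0.20) turned negative (-0.67, -0.87 and -0.25, the last not called). PRM6 had 41 reads at +24 h and 1 at +2 h, a ratio of 67.8 (95% interval 11.5 to 2741) with adjusted p = 7.53e-07. STE2 (YFL026W, chromosome VI, 82580 to 83875), the alpha-factor receptor, ASG7, KAR4 and FIG2 (YCR089W, chromosome III, 267434 to 272263), a cell wall adhesin, were lower (log2 fold changes -0.38 ± 0.13, -0.75 ± 0.28, -0.47 ± 0.16 and -0.41 ± 0.14). Without +24 h library 1 the calls of ASG7 and KAR4 ended, without +24 h library 2 those of STE2 and FIG2, without +2 h library 1 that of FIG2 and without +2 h library 2 that of ASG7 (adjusted p from 0.0615 to 0.263). FUS1 was not called, at 5.23 and 4.02 RPKM at +24 h and 5.05 and 5.11 at +2 h (log2 fold change -0.04 ± 0.26, adjusted p = 0.905).

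At +48 h over +24 h 6 genes rose and 17 fell, where 71.2% of all genes were called and 38.5% were lower (K. lactis scaling gave 1 higher and 33 lower, DESeq2 8 higher and 12 lower). FAR1 had 3.73 and 4.40 RPKM at +48 h against 38.2 and 44.9 at +24 h (log2 fold change -3.54 ± 0.22, adjusted p = 7.95e-13). GPA1 (YHR005C, chromosome VIII, 113499 to 114917), the G protein alpha subunit, had 25.7 and 32 against 84.6 and 84 (log2 fold change -1.74 ± 0.12, adjusted p = 1.25e-12), FUS3 60.6 and 59 against 111 and 137 (log2 fold change -1.19 ± 0.12, adjusted p = 2.5e-09) and PRM4 23 and 27.5 against 151 and 141 (log2 fold change -2.72 ± 0.17, adjusted p = 2.97e-13). All 4 were lower at +48 h without overlap. ASG7 had 2 reads at +48 h and 42 at +24 h, a ratio of 0.0761 (95% interval 0.00892 to 0.292). FUS2 rose, with 45.4 and 40.4 against 7.12 and 6.80 RPKM (log2 fold change 2.50 ± 0.15, adjusted p = 1.35e-13). PRM2 also rose (1.35 ± 0.31) and PRM1 fell (-0.89 ± 0.34), but both calls ended without +48 h library 1, and PRM1's also without either +24 h library (adjusted p = 0.329 and 0.532). FUS1 was not called at 4.65 and 5.60 against 5.23 and 4.02 RPKM (log2 fold change -0.04 ± 0.33, adjusted p = 0.93).

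The rrp6∆ cells were next set against wild type, first while growing on glucose. At -2 h 11 genes were higher in rrp6∆ and 11 lower, where 62.7% of all genes were called (31.2% higher, 31.5% lower), so the count was near that of all genes, and K. lactis scaling gave 5 higher and 17 lower. Of the a-specific genes 5 of 7 fell and of the G protein genes 3 of 4. BAR1 had 37.4 and 33.3 RPKM in rrp6∆ against 118 and 118 in wild type (log2 fold change -1.66 ± 0.10, adjusted p = 1.41e-12). FAR1 had 64.6 and 54.7 against 106 and 104 (log2 fold change -0.74 ± 0.11, adjusted p = 4.02e-06) and GPA1 86.4 and 76 against 119.9 and 111 (log2 fold change -0.43 ± 0.08, adjusted p = 4.55e-05). The 2 genotypes did not overlap in any of them. Higher in rrp6∆ were PRM10, with 27.7 and 26.3 against 6.80 and 8.56 RPKM (log2 fold change 1.91 ± 0.19, adjusted p = 8.14e-09), FUS2, with 5.60 and 4.77 against 2.52 and 2.84 (log2 fold change 1.05 ± 0.19, adjusted p = 3.67e-05), and STE11 (0.48 ± 0.10, not called with K. lactis scaling). The small changes of AGA2 (0.33 ± 0.12), STE20 (-0.24 ± 0.10) and PRM2 (1.41 ± 0.57) lost their calls when either library 1 (AGA2), any library (STE20) or any but rrp6∆ library 1 (PRM2) was left out (adjusted p = 0.105 to 0.134, 0.0611 to 0.169 and 0.0722 to 0.189). FUS1 was not called, at 6.57 and 4.20 in rrp6∆ and 7.22 and 8.22 in wild type (log2 fold change -0.40 ± 0.19, adjusted p = 0.0688; adjusted p = 0.0469 with the replicate as a block).

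In G1 with alpha factor 11 genes were higher in rrp6∆ and 4 lower, where 48.5% of all genes were called (K. lactis scaling gave 12 higher and 1 lower, DESeq2 6 higher and 4 lower). The changes stayed under 1 on the log2 scale. FUS2 had 669 and 586 RPKM in rrp6∆ against 399 and 359.9 in wild type (log2 fold change 0.79 ± 0.08, adjusted p = 9.35e-09), PRM10 123 and 123 against 93.5 and 72.5 (log2 fold change 0.63 ± 0.11, adjusted p = 7.48e-05), and AGA2 3363 and 4057 against 2471 and 3069 (log2 fold change 0.48 ± 0.09, adjusted p = 0.000109). The genotypes overlapped in none of the 3. FUS3 was higher by 0.44 ± 0.08, and BAR1 and MSG5 were lower (-0.34 ± 0.09 and -0.31 ± 0.07), neither of them with K. lactis scaling (adjusted p = 0.154 and 0.19). STE18 (0.47 ± 0.16), PRM3 (0.22 ± 0.08) and PRM5 (YIL117C, chromosome IX, 140613 to 141569; -0.23 ± 0.08) lost their calls without wild-type library 1 or rrp6∆ library 2 (STE18 and PRM5) or without wild-type library 2 or rrp6∆ library 1 (PRM3; adjusted p = 0.0941 to 0.177, 0.16 to 0.203 and 0.144 to 0.261). FUS1 was not called (log2 fold change -0.03 ± 0.09, adjusted p = 0.804), at the levels given above. Alpha-specific genes were higher in rrp6∆ in 4 of 4 cases at -2 h and in G1, and their summed level was 45.1 to 47.9 RPKM at -2 h and 68.4 to 72.0 in G1 in rrp6∆, against 17.9 to 18.4 and 19.8 to 21.4 in wild type. The part of this in the changes of the members was not tested.

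The 2 times with doubtful labels gave opposite pictures as labelled. Libraries labelled rrp6∆ +2 h had 18 genes higher and 3 lower than wild type +2 h (background 62.9%; K. lactis scaling: 8 higher and 19 lower), but 4 higher and 4 lower when set against wild type +24 h. Libraries labelled rrp6∆ +24 h had 7 higher and 14 lower than wild type +24 h (background 66.4%; K. lactis scaling: 31 higher and 1 lower), and 15 higher and 8 lower against wild type +2 h. FAR1 was 1.27 ± 0.14 as labelled +2 h and -0.32 crossed (adjusted p = 0.0638), and -1.12 ± 0.13 as labelled +24 h and 0.47 crossed (adjusted p = 0.0057). PRM6 turned too, with 16 reads in libraries labelled rrp6∆ +2 h against 1 in wild type +2 h, a ratio of 21.7 (95% interval 3.37 to 910.1), and a log2 fold change of -1.71 crossed. FAR1 and PRM6 thus had opposite signs under the 2 readings of the labels. STE2 was higher in libraries labelled rrp6∆ +24 h under both, by 1.46 ± 0.12 as labelled and 1.08 crossed. GPA1 (-0.65 ± 0.09 as labelled +24 h, -0.39 crossed) and STE11 (-1.0 ± 0.09, -0.44) were lower under both, but higher with K. lactis scaling (0.76 and 0.41). PRM4 was -1.59 ± 0.10 as labelled +2 h but lost its call crossed (adjusted p = 0.481).

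At +48 h 7 genes were higher and 3 lower in rrp6∆, where 46.5% of all genes were called (K. lactis scaling: 33 higher and 0 lower). PRM4 had 78.6 and 89.8 RPKM in rrp6∆ against 23 and 27.5 in wild type (log2 fold change 1.79 ± 0.19, adjusted p = 5.07e-08). KAR3 (YPR141C, chromosome XVI, 815734 to 817923), the motor protein of nuclear congression, had 20.5 and 25.7 against 13.4 and 15.4 (log2 fold change 0.73 ± 0.17, adjusted p = 0.00129), FAR1 7.05 and 9.62 against 3.73 and 4.40 (log2 fold change 1.09 ± 0.30, adjusted p = 0.00517) and FUS1 9.13 and 7.93 against 4.65 and 5.60 (log2 fold change 0.79 ± 0.31, adjusted p = 0.0369). STE11 was lower (-0.44 ± 0.09), but higher with K. lactis scaling (0.34). Without wild-type library 1 the calls of KAR3, FAR1, FUS1 and PRM1 (1.04 ± 0.35) ended (adjusted p from 0.0617 to 0.453) and 6 members were called. Without rrp6∆ library 2 those of FAR1, FUS1 and PRM1 ended, and 4 members were called. FUS1's call ended without any 1 of the 4 libraries. Without rrp6∆ library 1, the one in batch 2, 9 higher and 3 lower were called.

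In quiescence on day 8 few members differed, as did few of all genes. In steady-state RNA 5 members were higher and 1 lower in rrp6∆ (background 12% of all genes, 4.78% higher), and in nascent RNA 1 was higher (background 1.22%; DESeq2 called 1 higher and 1 lower, and edgeR with K. lactis scaling 0). The wild-type steady-state libraries of day 8 held 1361221 and 1466960 mRNA reads, against 2418282 and 3754468 in rrp6∆ on day 8 and 8006231 and 6085178 in wild type at -2 h. The part of depth in these counts was not tested. FAR1 had 17.8 and 18.1 steady-state RPKM in rrp6∆ against 42.9 and 34.4 in wild type (log2 fold change -1.09 ± 0.19, adjusted p = 0.0132). FUS1 had 7.46 and 9.61 against 2.78 and 3.98 (log2 fold change 1.35 ± 0.33, adjusted p = 0.0333), FUS3 68.8 and 66 against 45.1 and 41.8 (log2 fold change 0.65 ± 0.15, adjusted p = 0.0312) and PRM2 9.71 and 10.7 against 4.77 and 4.27 (log2 fold change 1.20 ± 0.28, adjusted p = 0.0301). In all 4 the genotypes were separated, but every one of these calls, and that of FIG1 (1.68 ± 0.43), ended without at least 3 of the 4 single libraries, which left 0 or 1 member called. Every call but that of FAR1 ended without any 1 library. K. lactis scaling gave 30 higher and 0 lower, with FAR1 at 0.06. The nascent call was FIG2, with 27.5 and 31.1 nascent RPKM in rrp6∆ against 15.6 and 17.1 in wild type (log2 fold change 0.88 ± 0.15, adjusted p = 0.0378), which ended without any 1 library (adjusted p = 0.0564 to 0.135). Nascent FUS1 was at 8.38 and 8.37 in rrp6∆ and 8.70 and 8.69 in wild type (log2 fold change -0.02 ± 0.20, adjusted p = 0.988).

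Quiescent Nab3-AID cells were compared with OsTIR-AID cells, both given auxin. In nascent RNA 15 of the 35 genes tested were higher and 9 lower, where 70.1% of all genes were called, and in steady-state RNA 15 were higher and 6 lower, where 62.7% were, both counts near those of all genes. PRM6 had too few reads to be tested here. K. lactis scaling gave 24 higher and 0 lower in nascent and 30 higher and 0 lower in steady-state RNA, and no decrease was called under it. FUS1 had 19.2 and 17.4 nascent RPKM in Nab3-AID against 7.37 and 5.53 in OsTIR-AID (log2 fold change 1.60 ± 0.18, adjusted p = 9.07e-07) and 17.2 and 15.6 steady-state RPKM against 4.36 and 6.70 (log2 fold change 1.70 ± 0.33, adjusted p = 0.000274). Neither strain came near the G1 levels of FUS1. The 4 quiescence markers SPG1, HSP12, HSP26 and SNZ1 were lower in Nab3-AID in both kinds of RNA, with summed levels of 11561 and 15521 RPKM in Nab3-AID against 103190.1 and 101511 in OsTIR-AID in steady-state RNA and 3373 and 4198 against 24890.5 and 27718 in nascent RNA. The 4 alpha-specific genes, none of them at 0, summed to 118 and 112 steady-state RPKM in Nab3-AID against 70.3 and 81.3 in OsTIR-AID, and to 102 and 96.8 nascent RPKM against 60.9 and 63.8. The part of these differences in the changes of the members was not tested.

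Among the signalling genes SST2 and FUS3 were higher in both kinds of RNA. SST2 had 74.5 and 83.2 nascent RPKM in Nab3-AID against 27.4 and 34.3 in OsTIR-AID (log2 fold change 1.48 ± 0.14, adjusted p = 1.37e-07), and FUS3 82 and 83.5 against 24 and 31.2 (log2 fold change 1.72 ± 0.15, adjusted p = 2.91e-08). In steady-state RNA they changed by 1.20 ± 0.21 and 1.30 ± 0.19. GPA1 was lower, with 22.4 and 20.5 nascent RPKM in Nab3-AID against 51.5 and 49.7 in OsTIR-AID (log2 fold change -1.12 ± 0.13, adjusted p = 1.23e-06), and so was MSG5 in steady-state RNA, with 24.3 and 12.4 against 62.4 and 65.5 (log2 fold change -1.63 ± 0.25, adjusted p = 8.07e-05). Both genes were not called with K. lactis scaling (adjusted p = 0.962 and 0.854). STE5 (0.71 ± 0.20 in steady-state RNA) lost its call without library 1 of either strain (adjusted p = 0.0577 to 0.144). KAR4 rose by 0.95 ± 0.26 in steady-state RNA. Its nascent change of 0.44 ± 0.16 was not called without library 2 of either strain (adjusted p = 0.106 to 0.171).

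PRM4 had the largest nascent change, with 226 and 197 RPKM in Nab3-AID against 45.6 and 49.7 in OsTIR-AID (log2 fold change 2.27 ± 0.13, adjusted p = 2.14e-10). AGA2 had 56.5 and 57.8 against 16.6 and 24.7 (log2 fold change 1.62 ± 0.23, adjusted p = 1.14e-05) and PRM3 21.4 and 21.2 against 7.42 and 9.87 (log2 fold change 1.44 ± 0.28, adjusted p = 0.000227). PRM5 went the other way at 70.5 and 65.3 against 163 and 164 (log2 fold change -1.14 ± 0.12, adjusted p = 2.25e-07), and so did AGA1 (YNR044W, chromosome XIV, 703699 to 705876), the anchor subunit of a-agglutinin, at 34.1 and 32.6 against 52.4 and 57.9 (log2 fold change -0.60 ± 0.11, adjusted p = 0.0001). STE6 (YKL209C, chromosome XI, 42423 to 46295), the a-factor exporter, was lower in nascent RNA (-0.64 ± 0.15). MFA1 had 155 and 182 steady-state RPKM in Nab3-AID against 634 and 516 in OsTIR-AID (log2 fold change -1.66 ± 0.22, adjusted p = 5.14e-06). Its nascent change of -0.59 ± 0.20 was not called without library 2 of either strain (adjusted p = 0.0791 to 0.149). In steady-state RNA PRM8 rose and AGA1 fell (log2 fold changes 1.98 ± 0.47 and -0.60 ± 0.16), while PRM3 (1.44 ± 0.51) lost its call without Nab3-AID library 1 or either OsTIR-AID library (adjusted p = 0.0502 to 0.0899). With K. lactis scaling the values of AGA1, STE6 and MFA1 were above 0 in these comparisons (0.50, 0.46 and 0.52 in nascent RNA, none called), and PRM5 was not called (adjusted p = 0.929). In steady-state RNA the same scaling called AGA1 higher in Nab3-AID (1.09, adjusted p = 0.03) and did not call MFA1 (0.012, adjusted p = 0.984).

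Reads on the strand opposite to the 36 genes behaved differently from the sense reads. The catalogue of noncoding RNAs counted by the authors holds 23 RNAs that lie antisense to 21 of the 36 genes, of the classes CUT, CUTHMM, SUT, XUT, NUT and SRAT. These classes name unstable or stable unannotated transcripts, partly by the factor whose loss reveals them: XUTs by the cytoplasmic nuclease Xrn1 and NUTs by the Nrd1-Nab3 pathway. The antisense RNA of FAR1 spans chromosome X from 123738 to 126477 and covers all 2493 bases of the gene. FUS3 has none in the catalogue. STE7, STE20 and PRM6 also overlap open reading frames on the opposite strand, whose reads cannot be told from other antisense reads. These are YDL159C-B and YDL158C for STE7, YHL006W-A for STE20 and YML047W-A for PRM6. The median share of antisense reads over the members was 26.2% in steady-state and 23.9% in nascent Nab3-AID libraries, against 7.52% and 7.27% in OsTIR-AID. It was 8.88% in rrp6∆ and 3.12% in wild type at -2 h, and 0.674% in rrp6∆ and 0.444% in wild type in G1. Over whole libraries antisense reads were 18% to 22.3% of sense and antisense mRNA reads in Nab3-AID, 6.40% to 7.95% in OsTIR-AID, 8.21% to 9.80% in rrp6∆ and 4.79% to 8.16% in wild type.

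Antisense reads over the members differed between Nab3-AID and OsTIR-AID cells too. In nascent RNA 32 of 34 genes tested were higher and 0 lower, where 83.7% of all genes were called (76.7% higher), and in steady-state RNA 20 were higher and 0 lower, where 69.3% were (63.3% higher). The steady-state count was near that of all genes. Over both OsTIR-AID steady-state libraries, with 1356331 and 1337088 mRNA reads, STE20 had 2 antisense reads. STE12, CIK1 and SST2 had 1 each, and FUS2, KAR5 and STE18 had 0. A decrease could hardly have been called for such members. When libraries were scaled on the antisense reads themselves, the split was 14 higher and 9 lower in nascent and 6 higher and 5 lower in steady-state RNA. GPA1 had 67.2 and 67.3 antisense nascent RPKM in Nab3-AID against 1.96 and 1.40 in OsTIR-AID (log2 fold change 5.39 ± 0.25, adjusted p = 8.75e-27). Its antisense level in Nab3-AID was above its sense level there, which was lower than in OsTIR-AID. ASG7 had 79.99 and 76.1 against 5.37 and 3.60 antisense RPKM (log2 fold change 4.19 ± 0.28, adjusted p = 1.6e-20), and PRM1 54.8 and 57.6 against 4.91 and 7.14 (log2 fold change 3.37 ± 0.20, adjusted p = 9.82e-23). Neither had a called sense change. STE20 had 29.8 and 36 antisense RPKM against 1.48 and 3.02 (log2 fold change 4.05 ± 0.23, adjusted p = 3.11e-21), with no called sense change either, and MSG5 29 and 34.4 against 4.47 and 5.40 (log2 fold change 2.82 ± 0.23, adjusted p = 5.35e-17), with its sense reads lower. FUS3 had 27.1 and 27.8 against 7.49 and 8.54 (log2 fold change 1.90 ± 0.24, adjusted p = 2.12e-10) beside a sense increase, and scaled on antisense reads its antisense change was not called (adjusted p = 0.631).

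Across the 32 genes with more antisense nascent RNA in Nab3-AID, the sense strand was lower in 9, higher in 12, not called in 10 and not tested in 1 (PRM6). The 9 were STE7, MFA1, GPA1, STE12, PRM5, STE6, STE11, MSG5 and AGA1, the same 9 that were lower among all members tested. Of all genes 33.7% were lower and 36.4% higher on the sense strand. In steady-state RNA 20 genes had more antisense RNA, and the sense strand was lower in 4 of them (STE7, STE6, MSG5 and AGA1), higher in 8 and not called in 8. There 30.4% of all genes were lower and 32.3% higher on the sense strand. MSG5 had 33.1 and 39.3 antisense steady-state RPKM in Nab3-AID against 9.13 and 7.01 in OsTIR-AID (log2 fold change 2.27 ± 0.31, adjusted p = 4.49e-09; adjusted p = 0.134 scaled on antisense reads). ASG7 had 56.8 and 62.2 against 12.4 and 1.82 (log2 fold change 3.16 ± 0.42, adjusted p = 2.56e-09), and GPA1 had 31 and 33.4 against 1.58 and 0, a ratio of 40.1 (95% interval 11 to 333) on 2 reads in OsTIR-AID. FAR1 antisense was raised least of those named, with 14.7 and 18.5 nascent RPKM in Nab3-AID against 12.8 and 12.1 in OsTIR-AID (log2 fold change 0.53 ± 0.18, adjusted p = 0.00727). That call was lost without Nab3-AID library 2 (adjusted p = 0.176) and the value was -1.24 scaled on antisense reads. Of the catalogued antisense RNAs tested, 20 of 22 were higher in nascent and 14 in steady-state RNA and none was lower, where 82.7% and 70.4% of all such RNAs were called.

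**Figure D4:**
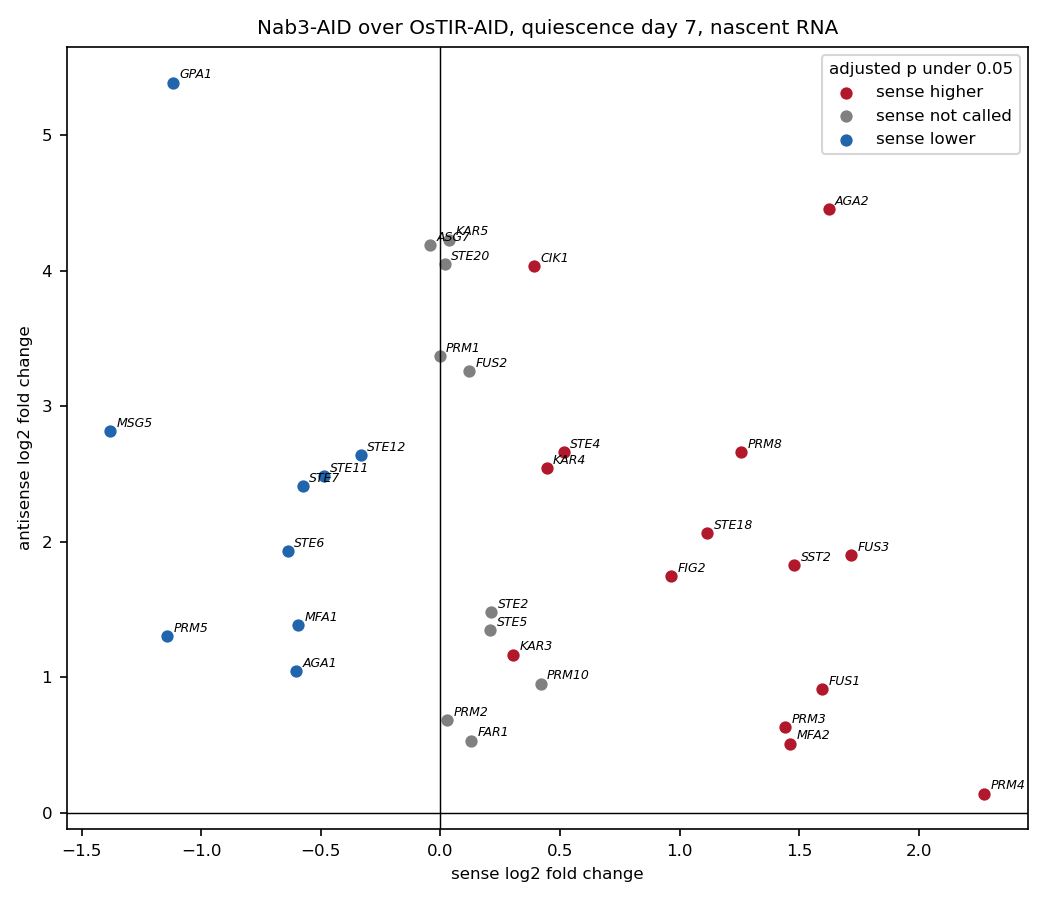
Antisense log2 fold change (vertical) against sense log2 fold change (horizontal) of Nab3-AID over OsTIR-AID in nascent RNA of quiescent cells, 1 point per gene tested on both strands, coloured by the sense call. All 33 points lie above 0 on the antisense axis, and GPA1 stands highest at 5.39 ± 0.25 with a sense change of -1.12 ± 0.13.

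In rrp6∆ cells antisense reads were compared at each time. At -2 h 18 of 35 members were higher and 2 lower, where 60.1% of all genes were called (55.2% higher; scaled on antisense reads, 11 higher and 10 lower). FAR1 had 111 and 111 antisense RPKM in rrp6∆ against 16.4 and 16.3 in wild type (log2 fold change 2.83 ± 0.13, adjusted p = 1.03e-63). The next highest members at -2 h were near 27 RPKM in either genotype. At the same time its sense level was 64.6 and 54.7 RPKM in rrp6∆ against 106 and 104 in wild type, and antisense reads outnumbered sense reads in rrp6∆ and not in wild type. Antisense levels of MSG5 (27.2 and 26.5 RPKM in rrp6∆ against 4.56 and 6.58 in wild type; log2 fold change 2.37 ± 0.17, adjusted p = 2.52e-31), KAR4 (24.5 and 20.4 against 3.96 and 4.61; log2 fold change 2.48 ± 0.24, adjusted p = 4.92e-20), ASG7 (20.3 and 25.9 against 2.26 and 2.95; log2 fold change 3.21 ± 0.31, adjusted p = 2.52e-20) and PRM1 (18.4 and 20.3 against 3.87 and 3.37; log2 fold change 2.47 ± 0.18, adjusted p = 3.25e-32) were raised too. Of these, MSG5 sense reads were higher and the other 3 were not called. Among the 18 genes with more antisense RNA the sense strand was lower in 4 (STE20, GPA1, BAR1 and FAR1), higher in 7 and not called in 7. Among all members 11 were lower and 11 higher on the sense strand, and among all genes 31.5% and 31.2%.

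In G1 with alpha factor 13 members had more antisense RNA in rrp6∆ and 0 less, where 53.2% of all genes were called (50% higher; scaled on antisense reads, 2 higher and 9 lower). Leaving out library 1 of either genotype gave 8 calls. MSG5 had 13.2 and 13.9 antisense RPKM in rrp6∆ against 1.56 and 2.09 in wild type (log2 fold change 2.95 ± 0.24, adjusted p = 1.47e-26), and FAR1 10.2 and 12.8 against 2.55 and 3.23 (log2 fold change 2.05 ± 0.18, adjusted p = 1.19e-23), with sense FAR1 at 366 and 362 RPKM in rrp6∆ against 361 and 341 in wild type and not called. At +48 h 18 were higher and 1 lower (background 37.7%; scaled on antisense reads, 13 higher and 3 lower), FAR1 with 41.1 and 37.4 against 15.1 and 12.6 (log2 fold change 1.48 ± 0.16, adjusted p = 5.5e-16) and MSG5 with 26 and 31.4 against 4.38 and 4.26 (log2 fold change 2.73 ± 0.27, adjusted p = 1.48e-19). The antisense FAR1 rise stood beside a sense increase there. Without wild-type library 1, 12 members were called at +48 h, and without rrp6∆ library 1, the one in batch 2, 14 higher and 0 lower. The libraries labelled +2 h and +24 h had 22 higher and 1 lower, and 22 higher and 1 lower as labelled (background 61.4% and 59%). Crossed they had 20 higher and 0 lower, and 23 higher and 0 lower, and 18 and 20 members were higher under both readings. Scaled on antisense reads, the splits as labelled were 10 higher and 6 lower, and 12 higher and 8 lower, and K. lactis scaling gave 11 higher and 5 lower at the labelled +2 h. FAR1 antisense reads were at 36.9 and 36.1 RPKM in libraries labelled rrp6∆ +2 h and 79.5 and 80.7 in those labelled rrp6∆ +24 h, against 16.6 and 18.5 in wild type at +2 h and 10.7 and 9.21 at +24 h. Few wild-type antisense reads limited which decreases could be called. BAR1 and KAR5 had 0 over both wild-type libraries at +24 h and at +48 h.

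**Figure D5:**
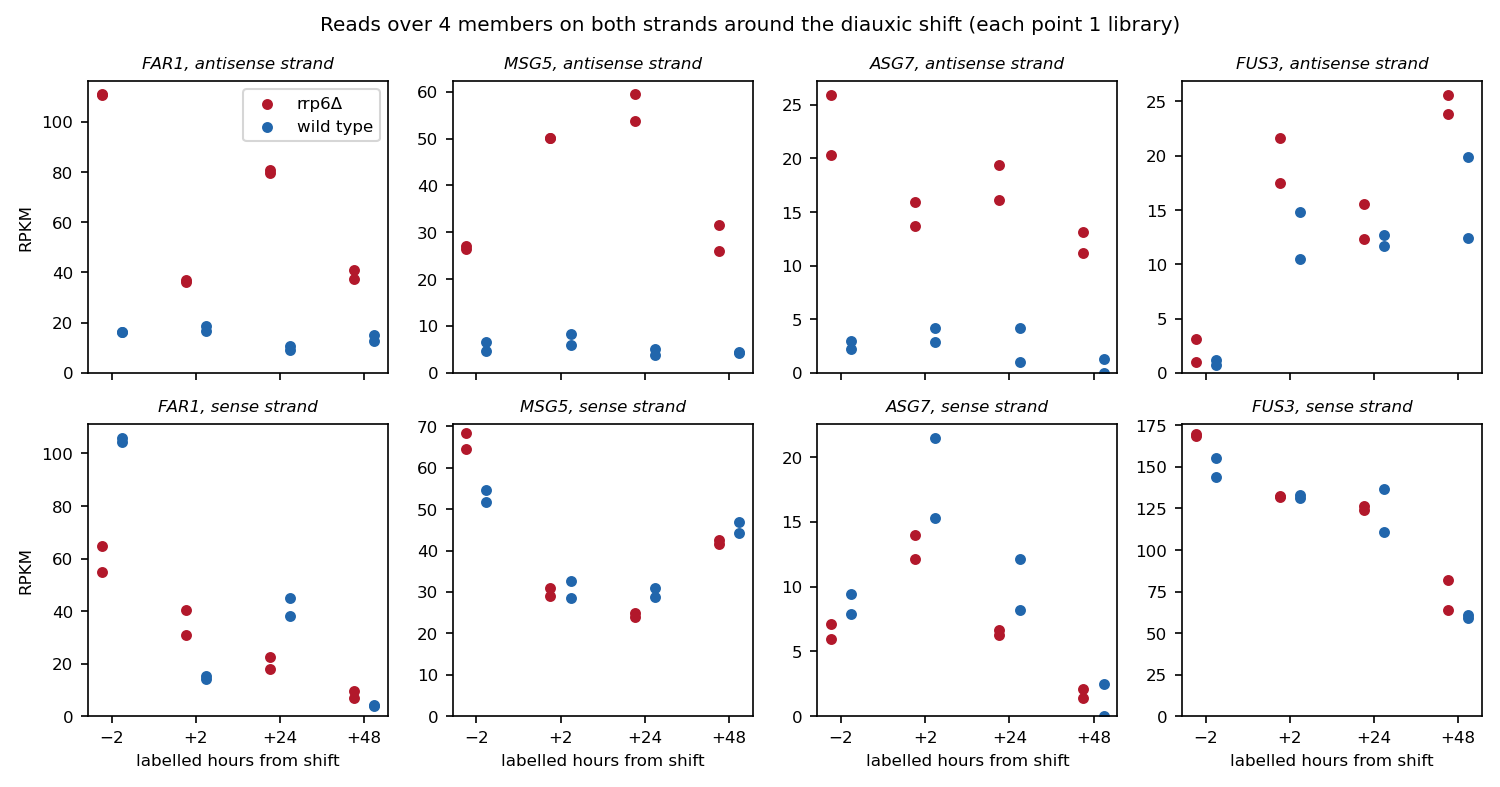
RPKM of 4 members on the antisense (upper row) and sense strand (lower row) at the labelled hours around the diauxic shift in rrp6∆ and wild-type cells, each point 1 library. Antisense FAR1 is at 111 RPKM in both rrp6∆ libraries at -2 h and near 16 in wild type, while sense FAR1 is lower in rrp6∆ there.

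In quiescence on day 8 fewer members differed on the antisense strand, as did fewer of all genes. In steady-state RNA 11 of 33 members were higher in rrp6∆ and 0 lower (background 30.8%), and in nascent RNA 3 were higher and 1 lower (background 14.6%). Both shares were near those of all genes, and the wild-type steady-state libraries had few reads, as given above. Over both of these libraries STE6 and BAR1 had 0 antisense reads, GPA1 1, FUS2 2, and SST2 and STE20 3 each. A decrease in rrp6∆ could hardly have been called for such members. Scaled on antisense reads the splits were 3 higher and 2 lower, and 1 higher and 2 lower, and in nascent RNA K. lactis scaling and DESeq2 each gave 1 higher and 1 lower. MSG5 had 17.2 and 20.5 antisense steady-state RPKM in rrp6∆ against 2.33 and 2.60 in wild type (log2 fold change 2.95 ± 0.41, adjusted p = 1.98e-06). FAR1 had 12.9 and 14.2 against 6.52 and 4.60 (log2 fold change 1.31 ± 0.33, adjusted p = 0.0025), beside its lower sense level, and the antisense call was lost without wild-type library 2 (adjusted p = 0.0782). Leaving out 1 steady-state library gave 5 to 9 calls, with 5 without wild-type library 1 and 6 without wild-type library 2 or rrp6∆ library 2. In nascent RNA the called members were ASG7, with 35.5 and 42.8 in rrp6∆ against 11.4 and 20.03 in wild type (log2 fold change 1.36 ± 0.29, adjusted p = 0.00191), GPA1, with 5.20 and 6.05 against 3.09 and 2.65 (log2 fold change 1.01 ± 0.31, adjusted p = 0.025), and PRM10, lower at 2.58 and 1.56 against 7.75 and 5.41 (log2 fold change -1.65 ± 0.32, adjusted p = 0.000602). GPA1's call ended without either wild-type library or rrp6∆ library 2 (adjusted p = 0.0508 to 0.144), and with the replicate as a block 7 higher and 1 lower were called.

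In wild type, more members had higher antisense reads in quiescence than in G1. Quiescent over G1 cells had 18 of 29 members higher and 0 lower in steady-state RNA and 24 higher and 0 lower in nascent RNA, where 48.7% and 67.6% of all genes were called (36.8% and 59.8% higher). The sense strand was lower in each of these 18 and 24 cases, as it was in 33 of all 36 members. Over both steady-state G1 libraries FUS3 had 0 antisense reads, MFA1, STE2 and ASG7 1 each, SST2 2 and PRM2 3. Such members passed the read filter only through other groups, and a decrease in quiescence could hardly have been called for them. PRM2 had 19.3 and 17.4 antisense nascent RPKM in quiescence against 0.451 and 0.246 in G1 (log2 fold change 5.64 ± 0.48, adjusted p = 1.62e-08), PRM1 20.7 and 13.6 against 0.325 and 0.406 (log2 fold change 5.47 ± 0.58, adjusted p = 2.21e-07) and ASG7 29.6 and 12.3 against 0.898 and 0.256 (log2 fold change 5.07 ± 0.71, adjusted p = 6.4e-06). For these 3 the antisense level in quiescence was above the sense level of the same libraries. MFA1 had 66 antisense reads in quiescence and 2 in G1, a ratio of 42.4 (95% interval 11.3 to 358). FUS3 had 4.97 and 8.72 antisense nascent RPKM in quiescence and no read in either G1 library, so it was at least 61.3-fold higher, taking a floor of 3 reads over the group. PRM2, PRM1, ASG7 and MFA1 were not called with K. lactis scaling (adjusted p from 0.198 to 0.644), in libraries whose K. lactis ratios differed between replicates, as given above. In nascent RNA the split changed with the scaling: K. lactis scaling gave 1 higher and 12 lower and scaling on antisense reads 18 higher and 0 lower. In steady-state RNA these gave 14 higher and 0 lower, and 13 higher and 2 lower. The change differed between nascent and steady-state RNA for FAR1 alone (2.76 ± 0.68, background 3.47%), and that call ended without any G1 library or steady-state quiescent library 2 (adjusted p = 0.072 to 0.176). K. lactis scaling gave 0 higher and 21 lower and scaling on antisense reads 1 higher and 1 lower for this difference.

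Nascent over steady-state antisense reads gave 6 members higher and 2 lower in quiescence (background 33.5%; K. lactis scaling gave 0 higher and 11 lower and scaling on antisense reads 4 higher and 3 lower), with 5 calls without steady-state library 1 and 2 without library 2. In G1 edgeR called 0 members, of which 2 had an unadjusted p under 0.05, and DESeq2 called 0 (background 1.61%), while K. lactis scaling gave 16 higher and 0 lower. Over the diauxic shift in wild type, antisense reads rose in 6 and fell in 7 members at +2 h over -2 h (background 40.4%), in 3 and 1 at +24 h over +2 h (background 20.1%) and in 6 and 4 at +48 h over +24 h (background 29.3%). With K. lactis scaling these were 3 higher and 17 lower, 0 higher and 20 lower, and 1 higher and 19 lower. At +24 h scaling on antisense reads gave 1 higher and 2 lower and DESeq2 1 higher and 1 lower, and 2 members were called without +2 h library 2 or either +24 h library. At +48 h scaling on antisense reads gave 2 higher and 5 lower, DESeq2 6 higher and 1 lower and the first run of resequenced samples alone 5 higher and 2 lower, and 4 to 6 were called without +24 h library 1 or either +48 h library. FUS3 had 10.5 and 14.8 antisense RPKM at +2 h against 1.21 and 0.701 at -2 h (log2 fold change 3.67 ± 0.34, adjusted p = 2.58e-21), with sense FUS3 at 131 and 133 RPKM at +2 h against 155 and 144 at -2 h and not called. ACH1, a mitochondrial acetyl-CoA metabolism gene, lies 609 bases downstream of FUS3 on the same strand.

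G1 with alpha factor over -2 h, in contrast, gave 12 of 35 members higher and 5 lower on the antisense strand in wild type (background 17.4%) and 12 higher and 12 lower in rrp6∆ (background 32%; K. lactis scaling: 14 higher and 8 lower). The sense strand rose in all 12 members raised on the antisense strand in each genotype, as it did in 34 of all 36 members in wild type and 33 in rrp6∆. AGA1 had 12.8 and 12.7 antisense RPKM in wild-type G1 against 0.523 and 0.598 at -2 h (log2 fold change 4.46 ± 0.28, adjusted p = 2.24e-39), beside 3967 and 3694 sense RPKM in G1 against 39.6 and 37.2 at -2 h. Over members above 500 RPKM in G1 the median antisense share was 0.549% in rrp6∆ and 0.376% in wild-type Universal Plus libraries, and 0.0145% and 0.0256% in wild-type Ovation steady-state and nascent libraries. The part of highly abundant sense RNA in these antisense reads was not tested. FAR1 went the other way, with 10.2 and 12.8 antisense RPKM in rrp6∆ G1 against 111 and 111 at -2 h (log2 fold change -3.32 ± 0.13, adjusted p = 4.23e-75) and 2.55 and 3.23 in wild-type G1 against 16.4 and 16.3 at -2 h (log2 fold change -2.54 ± 0.18, adjusted p = 4.2e-33), while its sense level rose in both genotypes. The antisense change differed between the genotypes for 8 members, all with the lower log2 change in rrp6∆ (background 8.7%; K. lactis scaling gave 4 higher and 6 lower).

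Another 35 genes of the pathway and of polarised growth in mating, listed apart from the 36, are given by their counts. In G1 over -2 h 18 rose and 8 fell in wild type (median 0.31; background 53.3%), and 18 rose and 7 fell in rrp6∆ (background 52.3%). In quiescence over G1 12 rose and 15 fell in steady-state RNA (median -0.40; background 74.4%), and 8 rose and 17 fell in nascent RNA (median -0.54; background 62.2%). Between rrp6∆ and wild type 14 were higher and 9 lower at -2 h (background 62.7%), while in day-8 quiescent cells 2 rose and 2 fell in steady-state RNA (background 12%). Between Nab3-AID and OsTIR-AID 7 were higher and 12 lower in nascent RNA (background 70.1%) and 11 higher and 12 lower in steady-state RNA (background 62.7%).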

How the data were processed

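The values are read counts per gene from nascent (4tU-seq) and steady-state RNA. The authors deposited raw counts for the sense and antisense strands of mRNAs and for noncoding RNAs, with S. cerevisiae and K. lactis genes in 1 table, 46 columns for 44 samples. 2 samples had a second run, which was summed with the first. Per the deposited table names, alignments to more than 1 place were left out. The submitters' processing notes name FastQC, MultiQC, UMI-tools, STAR, SAMtools, HTSeq and deepTools and the builds sacCer3 and R64, without roles or versions, and coordinates are on that build. How reads in overlapping genes were divided is not given in the sources used here.

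Counts were tested with edgeR 4.0.16 (limma 3.58.1, R 4.3.3) in 4 fits, 1 for each library kit and experiment: Ovation libraries, the diauxic-shift and G1 series (which spans both batches), quiescence on day 8, and Nab3-AID with OsTIR-AID. Each used filterByExpr, TMM factors of the filtered sense genes, the quasi-likelihood test and Benjamini-Hochberg adjustment over all genes tested at a threshold of 0.05. Antisense and noncoding tables took the sense library sizes. Standard errors are the log2 fold change over the square root of F. Genes with 3 or fewer reads in a group are given as ratios of depth-scaled reads with an exact 95% interval, or, against 0 reads, as a bound from a floor of 3 reads. Such intervals cover counting error only. DESeq2 1.42.0, K. lactis scaling, TMM on antisense reads, no low-count filter, a replicate block and leaving out each library were alternatives. Crossing the labelled times and using first runs alone were chosen after seeing the data. The procedure was tested on simulated data. The members and lists were chosen with earlier results of these data known.

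Genes named with values were drawn, in each comparison, from FUS1, the member with the greatest called change in each role and called members opposite to most of their role. On the antisense strand they were drawn from the called members. Only a part of these is printed on either strand. A few genes outside this rule are given too, such as STE5 in G1 over -2 h. The labels describe 2 biological replicates a group, and 2 libraries a group limit the precision. The replicate number goes with a strain number within a genotype. Same-numbered nascent and steady-state libraries deviated together in G1 (r = 0.40) and in quiescence (r = 0.27), and rrp6∆ and wild-type nascent libraries on day 8 did too (r = 0.62), while the other comparisons had r of -0.08 to 0.12. With 2 pairs each this did not settle a pairing, and fits without the block are given. No genome or sequence table was used, so no sequences are printed and promoter motifs were not searched.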

Additional observations from a re-analysis of the deposited data

Results flagged for a closer look

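Each gene below is named because the same contrast gave different log2 fold changes in 2 settings, by an interaction term in edgeR's quasi-likelihood test with an adjusted p under 0.05. With 2 libraries a group no gene was screened for single libraries far from the rest.

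The change of quiescence over G1 differed between nascent and steady-state RNA for 11 members on the sense strand. The value (nascent minus steady state, log2) was above 0 for AGA2 (1.41), ASG7 (1.35), STE20 (1.31), FAR1 (1.30) and STE2 (1.08) and below 0 for FUS2 (-1.24), STE18 (-1.49), STE7 (-1.50), STE11 (-1.59), FIG1 (-1.82) and PRM6 (-3.67). Under K. lactis scaling all 36 members were called below 0. On the antisense strand FAR1 alone was called (2.76).

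The change of G1 with alpha factor over -2 h differed between rrp6∆ and wild type for 19 members on the sense strand. The value (rrp6∆ minus wild type, log2) was above 0 for MFA1 (1.43), BAR1 (1.32), MFA2 (1.11), STE6 (1.00), FAR1 (0.85), STE2 (0.82), STE20 (0.52), SST2 (0.48), GPA1 (0.45) and STE5 (0.38). It was below 0 for STE11 (-0.40), MSG5 (-0.69), PRM3 (-0.81), AGA1 (-1.06), PRM10 (-1.28), PRM5 (-1.38), PRM4 (-1.61), PRM2 (-1.62) and FIG1 (-1.88). All the a-specific and G protein genes among them were above 0, and all the karyogamy and other PRM genes below 0. On the antisense strand the value was below 0 for FAR1 (-0.78), PRM1 (-1.47), KAR4 (-1.72), ASG7 (-1.77), FUS1 (-1.81), AGA1 (-1.92), BAR1 (-2.75) and CIK1 (-3.48).

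The -2 h libraries enter each difference between the genotypes, and FIG1 and PRM2 had under 1 RPKM in both wild-type libraries at -2 h. Leaving out 1 library ended the calls of FIG1, PRM2, PRM3 and STE11 on the sense strand and of ASG7, FAR1 and FUS1 on the antisense strand (rrp6∆ minus wild type) for at least 1 choice of library. It likewise ended those of ASG7, FAR1, FIG1, FUS2, PRM6, STE18 and STE2 on the sense strand and of FAR1 on the antisense strand (nascent minus steady state).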

How the results depend on the processing

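Of 366 counts of called members under an alternative, 302 were within 1.5 times of the reported count, and of 1808 values of single members, 1558 kept their direction and their side of the threshold. Dropping the low-count filter moved no count and ended no call. The replicate block moved 1 count beyond 1.5 times, that of antisense members between rrp6∆ and wild type in nascent quiescent RNA (8, against 4 without the block), and brought FUS1 at -2 h in rrp6∆ over wild type past the threshold (-0.40, adjusted p = 0.0469). It ended or added no other call among the named values. Over all members it added 7 and ended 2 of the calls from 718 sense tests, and added 8 and ended 0 from 664 antisense tests. Depth limits the genes with few reads, above all PRM6, FIG1, PRM2 and most antisense values in G1. The cause of each shift below was not tested, except that leaving out a library also leaves fewer residual degrees of freedom.

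K. lactis scaling called on the sense strand 36 members for nascent minus steady state of quiescence over G1, 34 for nascent over steady state in G1, 32 and 33 for rrp6∆ over wild type at the labelled +24 h and at +48 h, 30 in steady-state and 0 in nascent quiescent RNA. On the antisense strand it called 13 members for quiescence over G1 in nascent RNA, 21 for nascent minus steady state of that change, 16 for nascent over steady state in G1, 20 for each step of the wild-type time course, 24 and 2 for rrp6∆ over wild type in quiescent steady-state and nascent RNA and 33 for Nab3-AID over OsTIR-AID in steady-state RNA. TMM on antisense reads called 2 for nascent minus steady state, 5 for rrp6∆ over wild type in quiescent steady-state RNA and 11 for Nab3-AID in steady-state RNA. DESeq2 called 2 sense and 2 antisense members for rrp6∆ over wild type in nascent quiescent RNA, 6 antisense members in steady-state quiescent RNA, 5 for nascent over steady state in quiescence and 2 for +24 h over +2 h. With times crossed, 8 sense members were called for libraries labelled rrp6∆ +2 h.

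Leaving out 1 library gave, on the sense strand, 5 to 15 calls for nascent minus steady state, 0 to 3 for nascent over steady state in G1, 4 to 12 for rrp6∆ over wild type at +48 h, 0 to 1 in quiescent steady-state RNA and 0 in nascent RNA. On the antisense strand it gave 0 to 2 for nascent minus steady state, 2 to 9 for nascent over steady state in quiescence, 2 to 3 for +24 h over +2 h, 4 to 7 for +48 h over +24 h, and for rrp6∆ over wild type 8 to 10 in G1, 12 to 18 at +48 h and 5 to 9 in quiescent steady-state RNA. The only single values that turned sign then were those of FUS1 in 5 comparisons where it was not called: -0.11 to 0.18 for nascent over steady state in quiescence, -0.12 to 0.049 and -0.18 to 0.33 for rrp6∆ over wild type in G1 and at the labelled +2 h, and -0.24 to 0.14 and -0.22 to 0.16 for +24 h over +2 h and +48 h over +24 h in wild type.

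The log2 values that turned sign with K. lactis scaling were, for quiescence over G1, STE7 (-3.87) and STE11 (-3.64) in nascent RNA and, for nascent minus steady state, AGA2 (-2.72), STE20 (-2.89), FAR1 (-2.72) and antisense FAR1 (-1.45). For nascent over steady state they were MFA1 (1.03) and PRM3 (1.31) in G1 and STE20 (-0.23), PRM1 (-0.16) and FUS1 (-2.09) in quiescence. For rrp6∆ over wild type they were FUS1 (0.073) in G1, AGA2 (-0.074) at -2 h, STE4 (-0.11), STE20 (-0.47) and FUS1 (-0.66) at the labelled +2 h, GPA1 (0.76), STE11 (0.41) and FAR1 (0.29) at the labelled +24 h, STE11 (0.34) at +48 h and FAR1 (0.062) in quiescent steady-state RNA. In the wild-type time course they were STE7 (-0.063) at +2 h, STE4 (-0.67), STE11 (-0.87) and FUS2 (-0.25) at +24 h and PRM2 (-0.092) at +48 h. For Nab3-AID over OsTIR-AID they were MFA1 (0.012), MSG5 (0.096) and AGA1 (1.09) in steady-state RNA and MFA1 (0.52), STE6 (0.46) and AGA1 (0.50) in nascent RNA.

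With times crossed, AGA2 (-0.031), STE4 (-0.091), STE20 (-0.038), FAR1 (-0.32), PRM6 (-1.71) and PRM8 (0.15) turned at the labelled +2 h and FAR1 (0.47) and PRM6 (2.90) at the labelled +24 h. TMM on antisense reads turned antisense FAR1 in nascent Nab3-AID RNA (-1.24), and DESeq2 turned FUS1, not called by edgeR, for nascent over steady state in quiescence (-0.034) and for +48 h over +24 h (0.077).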

Other observations

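IME4, which encodes an RNA methyltransferase of the meiotic programme and is no mating gene, was higher in α-factor G1 than in quiescence. Its sense level was 0.906 and 0.841 RPKM in wild-type steady-state quiescence on day 7, against 143 and 145 RPKM in the steady-state G1 libraries of the same kit (log2 fold change -7.42 ± 0.27, adjusted p = 4.98e-07). In nascent RNA it was 0.561 and 0.375 RPKM in quiescence and 209 and 243 RPKM in G1 (log2 fold change -8.95 ± 0.26, adjusted p = 8.67e-07). Its antisense level was 334 and 286 RPKM in steady-state quiescence, against 12.9 and 14.5 RPKM in G1, and the samples of the 2 states did not overlap on either strand. IME1 and IME2, a transcription factor and a kinase gene of entry into meiosis, rose in quiescence over G1 in both kinds of RNA, IME1 by 2.28 ± 0.28 and IME2 by 3.30 ± 0.21 on the log2 scale in steady-state RNA.

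SPG1, HSP12, HSP26 and SNZ1, genes known to be induced in stationary phase, rose in 4 of 4 cases in quiescence over G1 in steady-state and in nascent RNA.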
